A study of Mus musculus with 10 samples.

Results

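The genes described here are those by which a cell shows peptides from its own proteins to CD8 T cells and natural killer cells: the class I heavy chains H2-K1, H2-D1 and H2-T23, their light chain B2m, the peptide transporter Tap1 and Tap2, the loading factor Tapbp, the immunoproteasome subunits Psmb8 and Psmb9, and the transactivator Nlrc5. They were chosen by name. All 10 were found by symbol among the 24421 gene symbols of the count files, and all 10 passed the filter on low counts, with 294 to 56006 counts per library. RNA was taken from inguinal subcutaneous white fat of the left hindlimb of wild-type C57BL/6J mice at day 70, and every library carries the label of batch 1. Sham mice (3 libraries) were not irradiated, while in the other groups that limb received 33.3 Gy of electrons from an ElectronFlash linear accelerator set to FLASH modality (4 libraries) or to conventional modality, called CONV (3 libraries). FLASH modality delivers the dose at a far higher rate than the conventional one. Whether every library came from its own animal is not stated in the labels, and p-values measure the spread between these libraries, which may be technical.

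Class I molecules are made in nearly all nucleated cells. The proteasome cuts proteins into peptides, the Tap1 and Tap2 dimer carries these into the endoplasmic reticulum, and tapasin (Tapbp) holds the empty heavy chain and its light chain beside the transporter until a peptide fits. Interferon induces the whole set, in part through Irf1 and Nlrc5, and exchanges the constitutive catalytic subunits Psmb5, Psmb6 and Psmb7 for the immunoproteasome subunits Psmb8, Psmb9 and Psmb10. Lymphocytes carry high levels of these genes without added interferon.

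In GENCODE M21 on GRCm38 (mm10), 8 of the 10 protein-coding genes lie in the major histocompatibility complex on chromosome 17. Psmb9 (34181987 to 34187764), Tap1 (34187553 to 34197225), Psmb8 (34197721 to 34201454) and Tap2 (34203527 to 34216321) follow each other within 34.3 kb. H2-K1 (33996017 to 34000347) and Tapbp (33915899 to 33929292) lie on one side of them, and H2-D1 (35262730 to 35267499) and H2-T23 (36029773 to 36032855) on the other. B2m lies on chromosome 2 from 122147686 to 122153083 and Nlrc5 on chromosome 8 from 94434356 to 94527272. Psmb9 and Tap1 run in opposite directions and share 212 exonic bases, Tapbp shares 149 exonic bases with Zbtb22 on the same strand, and Nlrc5 shares 78 with a lincRNA on the other strand. How strand was treated in the counting is not stated by the labels or files, and reads of these stretches cannot be assigned to one gene with certainty. H2-K1 and H2-D1 are close paralogs, and their counts carry the same reservation.

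Promoter windows (RefSeq, GRCm38.p6, 250 bases before to 50 after the start) were found for 8 of the 10 genes, all but Tap2 and Nlrc5. The 5 below are shown because their genes behave differently in these libraries: the heavy chains H2-K1 (chr17:34000298-34000597, minus strand), H2-D1 (chr17:35262844-35263143, plus strand) and H2-T23 (chr17:36032652-36032951, minus strand), the light chain B2m (chr2:122147437-122147736, plus strand), and the window of Tap1 (chr17:34187306-34187605, plus strand), of which 275 bases are also those of Psmb9 read on the other strand. Each is written 5′ to 3′ on the strand of its gene. Capitals mark matches, on either strand, to the interferon response element, the kappaB site and the Y box CCAAT. No 2 matches overlap in these windows.
H2-K1: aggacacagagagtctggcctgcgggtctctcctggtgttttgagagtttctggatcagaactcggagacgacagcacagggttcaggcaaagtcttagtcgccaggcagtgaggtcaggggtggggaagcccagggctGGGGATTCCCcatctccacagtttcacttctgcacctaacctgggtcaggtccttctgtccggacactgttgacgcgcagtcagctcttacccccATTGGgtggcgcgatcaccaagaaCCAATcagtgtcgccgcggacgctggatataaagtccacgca
H2-D1: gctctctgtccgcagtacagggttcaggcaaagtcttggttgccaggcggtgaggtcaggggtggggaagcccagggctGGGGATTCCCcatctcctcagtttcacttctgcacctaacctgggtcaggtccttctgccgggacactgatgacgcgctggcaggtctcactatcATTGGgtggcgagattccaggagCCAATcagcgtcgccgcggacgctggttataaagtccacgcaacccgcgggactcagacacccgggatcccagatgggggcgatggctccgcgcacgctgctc
H2-T23: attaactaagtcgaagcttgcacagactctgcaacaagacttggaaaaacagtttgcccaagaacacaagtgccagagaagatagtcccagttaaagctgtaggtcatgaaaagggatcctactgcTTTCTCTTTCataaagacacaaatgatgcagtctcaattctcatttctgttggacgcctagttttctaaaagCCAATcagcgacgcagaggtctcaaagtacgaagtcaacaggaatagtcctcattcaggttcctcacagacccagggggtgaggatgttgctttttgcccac
B2m: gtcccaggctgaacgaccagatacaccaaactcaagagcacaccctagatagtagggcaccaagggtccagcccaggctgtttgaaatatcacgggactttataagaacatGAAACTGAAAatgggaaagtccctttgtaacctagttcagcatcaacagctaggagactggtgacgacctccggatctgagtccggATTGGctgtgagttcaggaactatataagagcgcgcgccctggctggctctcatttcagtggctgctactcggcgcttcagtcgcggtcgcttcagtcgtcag
Tap1: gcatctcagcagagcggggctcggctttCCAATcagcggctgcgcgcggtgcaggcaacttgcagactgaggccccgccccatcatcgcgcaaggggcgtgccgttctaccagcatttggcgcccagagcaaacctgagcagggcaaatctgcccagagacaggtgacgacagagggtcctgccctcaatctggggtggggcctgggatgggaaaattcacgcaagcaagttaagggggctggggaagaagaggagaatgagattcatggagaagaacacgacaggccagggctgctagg

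The kappaB letters stood in H2-K1 and H2-D1 and in 1.753% of all 32851 windows of this length. A match to the interferon response element, searched as a fixed pattern, stood in H2-T23 and B2m and in 3.443% of all windows. Variants of that pattern were not searched, so a window without a match may still hold such an element. A Y box stood in 7 of the 8 genes, all but Psmb8, and in 37.41% of all windows. RefSeq gives H2-K1 another start site a few bases downstream, whose window holds the same 3 matches. These are matches of letters and say nothing on whether a factor binds.

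Library depth was 22.4 to 36.0 M (1e6) counts given to genes, and a count of 3 equals 0.0908 to 0.1155 CPM (counts per 1e6 gene counts, scaled by TMM), for counting error only. The summed level of 10 adipocyte genes (Adipoq, Plin1, Lep and others, all detected) was 10190 to 18130 CPM in 8 libraries, so markers of the labelled tissue were present. The lowest sums were 2523 CPM, in FLASH replicate 3, and 2056 CPM, in CONV replicate 2. The summed level of 12 B cell genes was 2828 and 3458 CPM in these 2 libraries against 12.0 to 14.5 CPM in sham, and that of 12 T cell genes 996 and 671 CPM against 8.50 to 14.1 CPM. None of the B cell or T cell genes was at 0 in all sham libraries. FLASH replicate 3 and CONV replicate 2, whose mean log2 level of the B cell genes lay more than 3 above the highest sham library, are called lymphocyte-rich below. Results are given with all 10 libraries and, where stated, also with the other 8. Values without such a statement include these 2 libraries. In whole tissue, fewer cells of a type and less RNA per cell cannot be told apart.

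The light chain was by far the most abundant of the set in sham fat. Per kb of exon, B2m stood at 2038 ± 114 CPM (SD, n = 3), above H2-D1 at 218 ± 57.1 and H2-K1 at 189 ± 45.0, whose ranges overlap. Tapbp followed at 76.6 ± 16.5. Next came Tap2 at 15.5 ± 2.31, H2-T23 at 13.9 ± 1.85 and Nlrc5 at 12.0 ± 1.63, again with overlapping ranges. Psmb8 at 7.33 ± 1.55, Tap1 at 7.08 ± 1.53 and Psmb9 at 4.09 ± 0.854 closed the order. The range of Psmb9 lay below those of Tap1 and Psmb8. The constitutive subunits were higher per kb than their immunoproteasome partners, with Psmb5 at 26.2 ± 8.83, Psmb6 at 39.0 ± 6.94 and Psmb7 at 18.7 ± 3.16 against Psmb10 at 7.72 ± 1.89. The length used counts the exons of all annotated transcripts, 3381 bases for Psmb8 and 899 for Psmb5. Without division by length, Psmb8 (24.8 CPM) and Psmb5 (23.5 CPM) were alike in sham. Psmb6 (73.1 CPM) and Psmb7 (63.8 CPM) stayed above Psmb9 (15.0 CPM) and Psmb10 (13.2 CPM).

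Across the 10 libraries most of the set was high in 3 of them, and these were not the libraries of one group. On the log2 scale, the mean of the 10 genes lay 1.15 above the sham mean in lymphocyte-rich FLASH replicate 3, 1.16 in lymphocyte-rich CONV replicate 2 and 0.67 in CONV replicate 3. In the other 4 irradiated libraries it lay between −0.14 and −0.05, and in sham between −0.21 and 0.24. FLASH replicate 3 was above the sham range in 8 of 10 genes, CONV replicate 2 in 7 and CONV replicate 3 in 9. FLASH replicates 1, 2 and 4 and CONV replicate 1 were within the sham range in 7, 7, 8 and 8 of 10 genes.

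**Figure D1:**
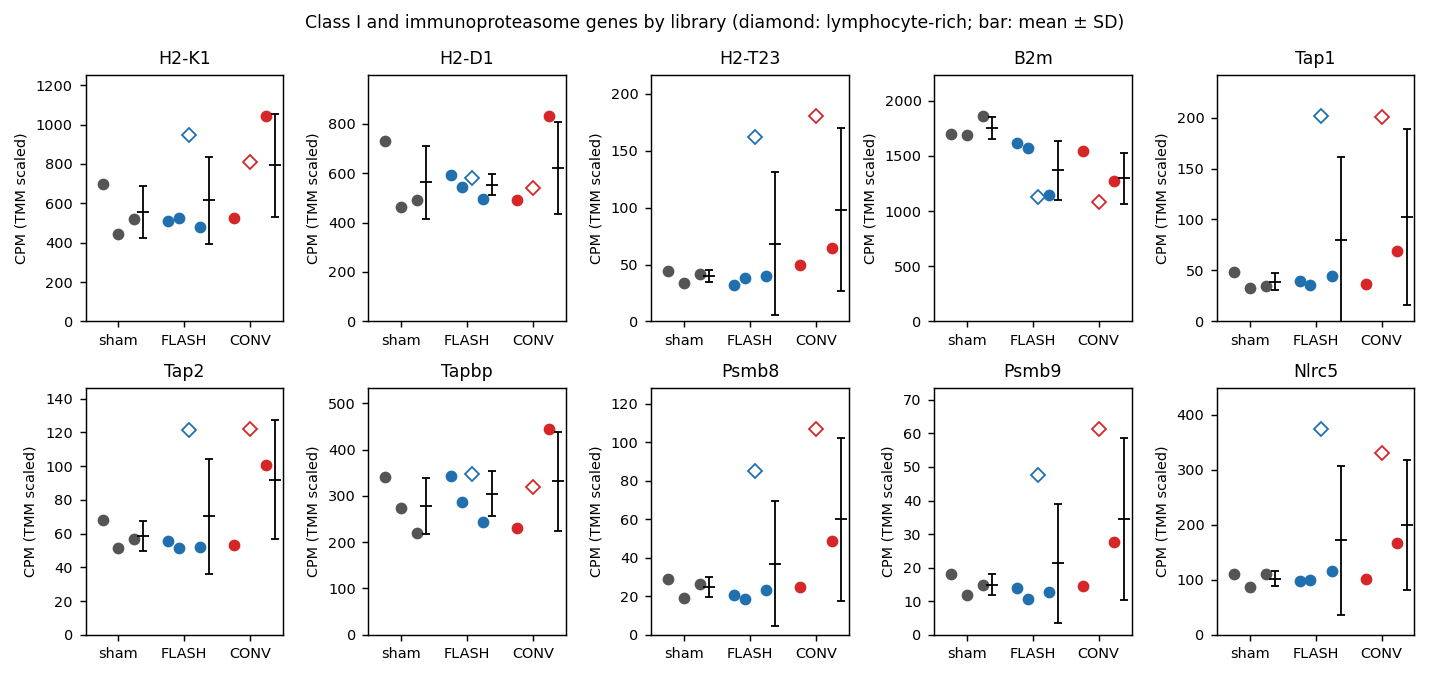
Level of each of the 10 genes in every library (y axis, CPM after TMM scaling, linear from 0) by group (x axis). Points are libraries, open diamonds the lymphocyte-rich FLASH replicate 3 and CONV replicate 2, and the bar beside each group its mean ± SD over all its libraries. For H2-T23, Tap1, Tap2, Psmb8, Psmb9 and Nlrc5 the diamonds are the 2 highest libraries, while B2m is highest in sham.

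H2-K1, the classical heavy chain of the K locus, stood at 701, 443 and 520 CPM in sham replicates 1 to 3. In FLASH replicates 1 to 4 it stood at 510, 526, 947 and 478 CPM, and in CONV replicates 1 to 3 at 523, 811 and 1045 CPM. FLASH replicate 3 and CONV replicates 2 and 3 were above every sham library, and the other irradiated libraries lay inside the sham range. The log2 fold change was 0.15 ± 0.35 (SE) in FLASH against sham, 0.52 ± 0.38 in CONV against sham and −0.37 ± 0.35 in FLASH against CONV. In the 8 libraries these were −0.14 ± 0.27, 0.48 ± 0.30 and −0.62 ± 0.30.

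H2-D1, the classical heavy chain of the D locus, stood at 732, 464 and 491 CPM in sham, at 591, 544, 579 and 496 CPM in FLASH and at 492, 538 and 832 CPM in CONV. Unlike H2-K1 it was not raised in either lymphocyte-rich library, and only CONV replicate 3 was above the sham range. Its log2 fold change was −0.02 ± 0.27 in FLASH and 0.14 ± 0.29 in CONV against sham, and −0.17 ± 0.27 in FLASH against CONV. The ratio of H2-K1 to H2-D1 was 0.954 to 1.06 in sham and 1.64 and 1.51 in the lymphocyte-rich FLASH and CONV libraries. It was 1.26 in CONV replicate 3 and 0.863 to 1.06 in the other 4 irradiated libraries. The 2 promoters hold the same kappaB letters and both Y boxes, as printed above.

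H2-T23 encodes the nonclassical heavy chain Qa-1, which is read by the CD94 and NKG2A receptor of natural killer cells. It stood at 44.4, 34.1 and 41.9 CPM in sham, at 31.9, 38.5, 163 and 40.1 CPM in FLASH and at 49.8, 181 and 64.5 CPM in CONV. All 3 CONV libraries were above all 3 sham libraries, whereas FLASH overlapped sham. Higher levels in CONV than in sham without overlap were seen for 1 of the 10 genes (H2-T23) and for 8.55% of all genes tested. The log2 fold change was 1.30 ± 0.71 in CONV and 0.77 ± 0.66 in FLASH against sham. With the 8 libraries the values were 0.49 ± 0.18 in CONV (edgeR with Benjamini-Hochberg adjustment, adjusted p = 0.291) and −0.13 ± 0.16 in FLASH, and CONV again lay above sham without overlap, as did 12.9% of all genes.

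B2m, the light chain that every class I heavy chain needs, went the other way. It stood at 1701, 1692 and 1865 CPM in sham, at 1618, 1575, 1132 and 1149 CPM in FLASH and at 1543, 1080 and 1270 CPM in CONV. All 7 irradiated libraries were below all 3 sham libraries, with the lowest values in FLASH replicates 3 and 4 and CONV replicate 2, so low B2m was not limited to the lymphocyte-rich pair. The means were 1753 ± 97.6 CPM (SD, n = 3) in sham, 1368 ± 264 (n = 4) in FLASH and 1298 ± 233 (n = 3) in CONV. Lower levels than in sham without overlap were seen for 1 of the 10 genes (B2m) in FLASH, against 2.46% of all genes tested, and for the same gene in CONV, against 9.13%. The 2 comparisons share the sham libraries. The log2 fold change was −0.36 ± 0.28 in FLASH (edgeR with Benjamini-Hochberg adjustment, adjusted p = 0.998) and −0.43 ± 0.30 in CONV (adjusted p = 0.607). Without the lymphocyte-rich pair it was −0.28 ± 0.18 and −0.33 ± 0.20, where 4.65% and 13.2% of all genes were lower without overlap.

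Tap1, one chain of the transporter, stood at 48.4, 32.8 and 35.2 CPM in sham, at 39.6, 35.7, 202 and 44.5 CPM in FLASH and at 37.0, 201 and 69.3 CPM in CONV. Tap2, the other chain, stood at 68.3, 51.3 and 56.5 CPM in sham, at 55.7, 51.4, 122 and 51.9 CPM in FLASH and at 53.3, 122 and 101 CPM in CONV. Both were high in the lymphocyte-rich pair and, less so, in CONV replicate 3, and FLASH and CONV overlapped sham. With all 10 libraries Tap1 differed more than Tap2. Its log2 fold change was 1.05 ± 0.76 in FLASH and 1.40 ± 0.81 in CONV against sham, and that of Tap2 0.26 ± 0.38 and 0.65 ± 0.41. In the 8 libraries left without the lymphocyte-rich pair Tap1 was 0.03 ± 0.25 and 0.43 ± 0.27, and Tap2 −0.16 ± 0.22 and 0.37 ± 0.25. The ratio of Tap1 to Tap2 was 0.623 to 0.708 in sham, 1.66 and 1.64 in the lymphocyte-rich FLASH and CONV libraries, and 0.688 to 0.857 in the other irradiated libraries.

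Tapbp, the bridge between heavy chain and transporter, differed little between the lymphocyte-rich pair and the other libraries. It stood at 340, 274 and 220 CPM in sham, at 342, 287, 348 and 243 CPM in FLASH and at 232, 320 and 444 CPM in CONV. CONV replicate 3 was the highest library, FLASH replicates 1 and 3 lay just above the highest sham library, and the log2 fold changes were 0.14 ± 0.27 in FLASH and 0.26 ± 0.29 in CONV.

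Psmb8 (LMP7), the immunoproteasome counterpart of Psmb5, stood at 28.9, 18.9 and 26.5 CPM in sham, at 20.8, 18.4, 85.2 and 23.4 CPM in FLASH and at 24.6, 107 and 48.5 CPM in CONV. Psmb9 (LMP2), the counterpart of Psmb6, stood at 18.1, 11.9 and 14.9 CPM in sham, at 14.0, 10.8, 47.7 and 12.6 CPM in FLASH and at 14.5, 61.3 and 27.5 CPM in CONV. The same 3 libraries were high in both genes, and no group was separate from sham. The log2 fold change of Psmb8 was 0.58 ± 0.65 in FLASH and 1.28 ± 0.70 in CONV against sham, and that of Psmb9 0.51 ± 0.63 and 1.21 ± 0.67. In the 8 libraries FLASH was −0.26 ± 0.26 and −0.27 ± 0.26 against sham, and CONV 0.54 ± 0.29 and 0.47 ± 0.29.

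Nlrc5, which drives transcription of the class I genes, stood at 110, 86.2 and 110 CPM in sham, at 97.6, 98.7, 374 and 116 CPM in FLASH and at 101, 331 and 168 CPM in CONV. FLASH replicate 3, CONV replicate 2 and CONV replicate 3 were the 3 highest libraries, in the same order as for Tap1, and the rest lay close to sham. The log2 fold change was 0.75 ± 0.57 in FLASH and 0.97 ± 0.60 in CONV against sham, and 0.02 ± 0.20 and 0.37 ± 0.22 in the 8 libraries.

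None of the 10 genes passed an adjusted p of 0.05 in edgeR with Benjamini-Hochberg adjustment over 15266 genes, in any of the 3 comparisons, where 0% of all genes were called. DESeq2 also called none of the 10, while it called 0% of all genes between FLASH and sham, 0.455% between CONV and sham and 0.276% between FLASH and CONV. Adjusted p was 0.998 or higher in FLASH against sham, 0.607 to 0.824 in CONV against sham and 0.999 in FLASH against CONV. At an unadjusted p under 0.05, 0 of the 10 genes passed in each comparison, beside 99 (0.648%), 889 (5.82%) and 453 (2.97%) of all genes in the same order. By count and median, 8 of 10 genes were positive in FLASH against sham (median log2 fold change 0.38), against 54.1% of all genes (median 0.03). In CONV against sham 9 of 10 were positive (median 0.81), against 56.9% of all genes (median 0.08). In FLASH against CONV 9 of 10 were negative, with a median of −0.36 against −0.04 for all genes.

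Without the lymphocyte-rich pair the median turned negative in FLASH and kept its sign in CONV. In the 8 libraries 3 of 10 genes were positive in FLASH against sham with a median of −0.14, beside −0.01 for all genes. In CONV against sham 9 of 10 were positive with a median of 0.40, beside 0.01 for all genes. That CONV value rested on CONV replicate 3, since with CONV replicate 1 alone left of that group 1 of 10 genes was positive. EdgeR called 0 of the 10 genes in any comparison of the 8 libraries, and 0.0393% of all genes in CONV against sham and 0.0131% in FLASH against CONV.

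**Figure D2:**
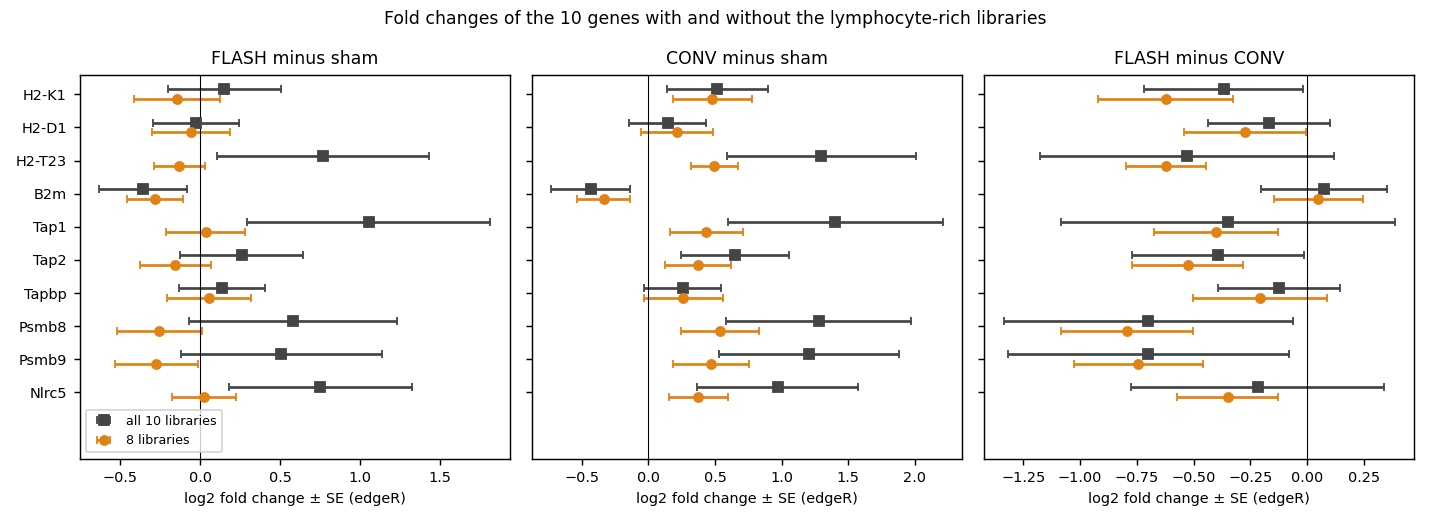
Log2 fold change ± SE from edgeR (x axis) of the 10 genes (y axis) in the 3 comparisons, with all 10 libraries (squares) and with the 8 libraries left without the lymphocyte-rich pair (circles). In FLASH minus sham the circles of H2-K1, H2-T23, Tap2, Psmb8 and Psmb9 lie left of 0 and the squares right of it, while B2m lies left of 0 in both fits of both comparisons with sham.

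FLASH and CONV were compared directly in the 8 libraries, where 3 FLASH libraries stood against CONV replicates 1 and 3. FLASH was below CONV without overlap for H2-T23, Psmb8 and Psmb9, 3 of 10 genes, against 13.3% of all genes. The log2 fold changes in edgeR with Benjamini-Hochberg adjustment were −0.62 ± 0.18 for H2-T23 (adjusted p = 0.199), −0.79 ± 0.29 for Psmb8 (adjusted p = 0.29) and −0.74 ± 0.29 for Psmb9 (adjusted p = 0.313). DESeq2 on the same 8 libraries called H2-T23 (−0.63, adjusted p = 0.0458), 1 of the 10 genes, where it called 4.39% of all genes. It called 0 of the 10 in FLASH against sham and 0 of the 10 in CONV against sham, beside 0.0263% and 4.35% of all genes. With CONV replicate 3 as the lone CONV library, 1 of the 10 genes was positive in FLASH against CONV and 9 in CONV against sham. Of all genes 51.7% and 47.6% were positive in these comparisons. With CONV replicate 1 as the lone one, 4 and 1 of the 10 were positive, against 51.5% and 46.4% of all genes. With all 10 libraries no gene of the set separated FLASH from CONV.

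Within a library, the ratio of an immunoproteasome subunit to its constitutive partner separates a change of the immunoproteasome from a change of all proteasome genes. Psmb8 to Psmb5 was 0.872 to 1.59 in sham, 4.87 and 4.20 in the lymphocyte-rich FLASH and CONV libraries, and 0.924 in CONV replicate 3. Psmb9 to Psmb6 was 0.175 to 0.234 in sham, 0.947 and 1.06 in the pair, and 0.272 in CONV replicate 3. Psmb10 to Psmb7 was 0.192 to 0.222 in sham, 0.820 and 0.757 in the pair, and 0.333 in CONV replicate 3. The pair was thus far above sham in all 3 ratios. CONV replicate 3 was inside the sham range for Psmb8 to Psmb5 and above it for the other ratios by less than the pair. In CONV replicate 3 the constitutive subunit Psmb5 was itself high, at 52.5 CPM against 16.7 to 32.2 CPM in sham, and in the lymphocyte-rich pair it was 17.5 and 25.4 CPM. The other constitutive subunits were below sham in the pair. Psmb6 was 50.34 and 57.65 CPM there (sham 63.52 to 87.88 CPM) and Psmb7 36.32 and 43.05 CPM (sham 56.39 to 76.19 CPM). The ratios of Psmb9 to Psmb6 and Psmb10 to Psmb7 in the pair thus include a lower denominator.

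The ratio of Tap1 to Psmb9, neighbours that share a promoter region, was 2.67, 2.76 and 2.37 in sham, 2.83, 3.32, 4.23 and 3.53 in FLASH and 2.55, 3.27 and 2.52 in CONV. All 4 FLASH libraries were above all 3 sham libraries. This gave the smallest p that an exact two-sided permutation test of 4 against 3 libraries can reach, 0.0571, and 0.617 after adjustment over the 27 tests of 9 ratios in 3 comparisons. The ratios were chosen with the levels known. None of the 27 passed, and in CONV against sham the test cannot go below 0.1.

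**Figure D3:**
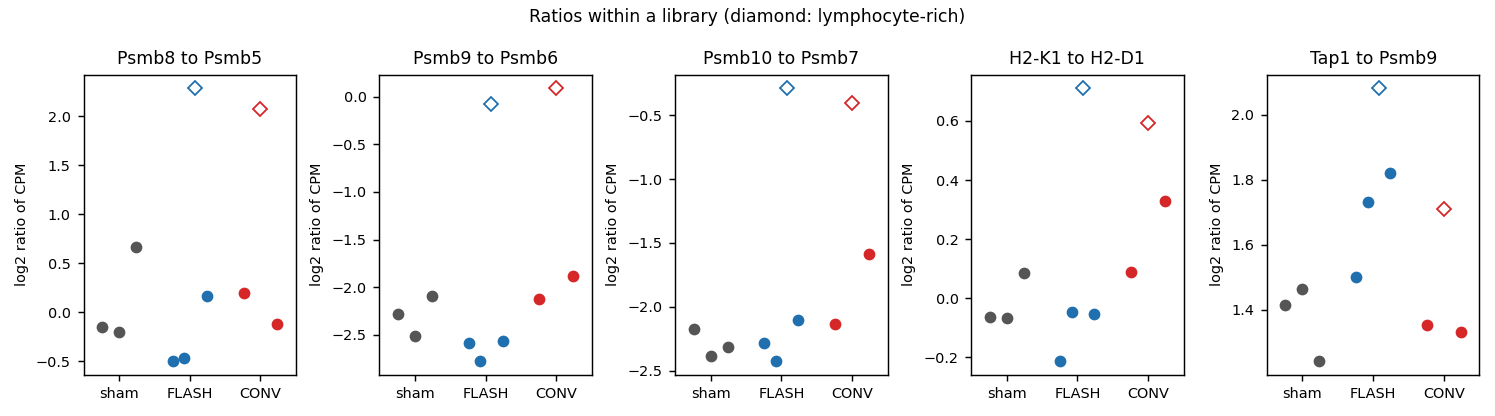
Log2 ratio of 2 genes within a library (y axis) by group (x axis) for the 3 pairs of immunoproteasome and constitutive subunit, for H2-K1 to H2-D1 and for Tap1 to Psmb9. Points are libraries and open diamonds the lymphocyte-rich pair. The diamonds lie above every other library in the first 4 panels, and in the last panel the 4 FLASH libraries lie above sham.

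Calr, Hspa5, Pdia3 and Canx, which act in protein folding in the endoplasmic reticulum, were lower in every FLASH library than in every CONV library after TMM scaling. They belong to a list of 12 genes of the loading complex and peptide trimming. Calr (calreticulin), a lectin chaperone of the loading complex, stood at 383, 430 and 443 CPM in sham, at 326, 346, 302 and 304 CPM in FLASH and at 487, 515 and 575 CPM in CONV. Hspa5 (BiP), the major chaperone of the endoplasmic reticulum, stood at 329, 308 and 320 CPM in sham, at 279, 296, 264 and 248 CPM in FLASH and at 386, 602 and 384 CPM in CONV. For both genes FLASH was below sham and CONV above it with no overlap, lymphocyte-rich libraries included. In CONV against sham 3 of the 12 genes (Calr, Hspa5 and Tpp2) were higher without overlap, against 8.55% of all genes.

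Pdia3 (ERp57), the thiol oxidoreductase of the loading complex, stood at 200, 215 and 210 CPM in sham, at 174, 165, 162 and 149 CPM in FLASH and at 223, 273 and 209 CPM in CONV. Canx (calnexin), which binds the new heavy chain first, stood at 357, 344 and 353 CPM in sham, at 328, 323, 274 and 317 CPM in FLASH and at 401, 341 and 413 CPM in CONV, and was named after its values were seen. In both genes every FLASH library was below all others, and CONV overlapped sham. Of the 12 genes 4 (Calr, Canx, Pdia3 and Hspa5) were lower in FLASH than in CONV without overlap, against 1.13% of all genes, and the same 4 were lower in FLASH than in sham, against 2.46%. With libraries scaled by total counts alone, FLASH overlapped sham for Pdia3 and Hspa5, and FLASH overlapped CONV for Pdia3.

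In FLASH against CONV the log2 fold change was −0.72 ± 0.17 for Calr, −0.75 ± 0.21 for Hspa5 and −0.54 ± 0.15 for Pdia3, with an adjusted p of 0.999 in edgeR with Benjamini-Hochberg adjustment, so none was called. DESeq2 called all 3, with adjusted p = 3.43e-06 for Calr, 0.038 for Hspa5 and 0.0139 for Pdia3, where it called 0.276% of all genes. Over the 8 libraries edgeR gave −0.70 ± 0.14, −0.48 ± 0.12 and −0.40 ± 0.11, with adjusted p = 0.122, 0.163 and 0.188. Over the whole list 10 of 12 genes were negative in FLASH against CONV (median −0.25, all genes −0.04) and 8 of 12 in FLASH against sham (median −0.14), and 8 of 12 were positive in CONV against sham (median 0.16). Sec61b, of the translocon through which the chains enter, was 0.93 ± 0.50 in CONV against sham, with its highest level in CONV replicate 2 (47.3 CPM, sham 9.44 to 21.2 CPM).

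**Figure D4:**
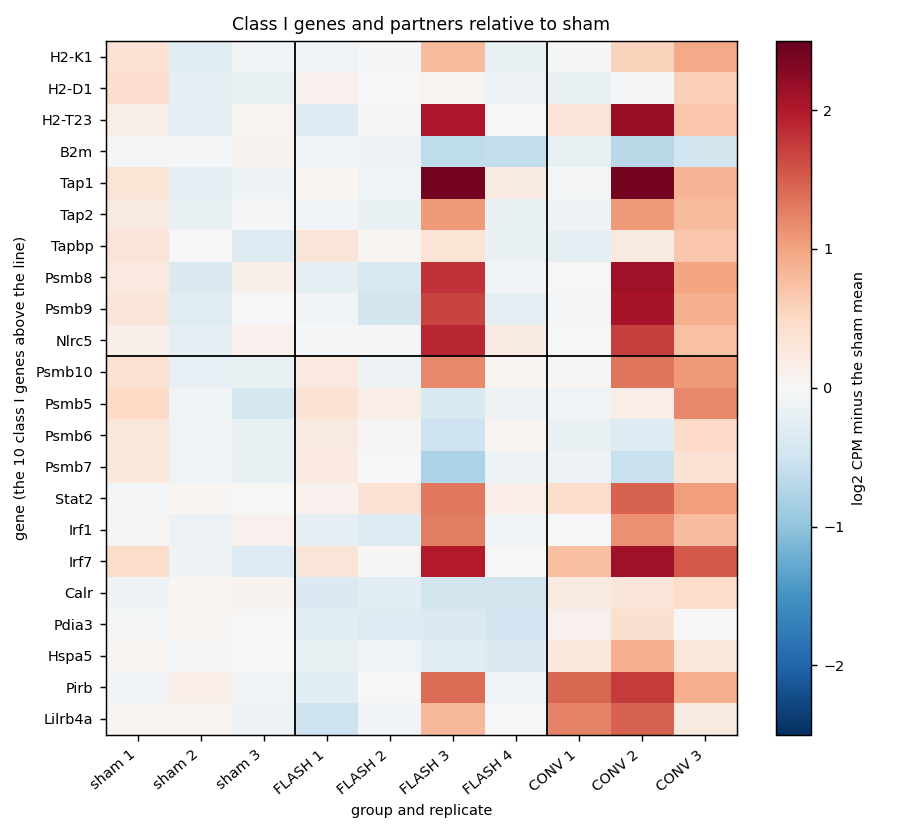
Log2 CPM minus the sham mean (colour, red above and blue below 0) for the 10 genes (above the line) and for selected partners (below it) in every library (columns). Most of the 10 genes are red in FLASH 3, CONV 2 and CONV 3 and B2m is blue there, while Calr, Pdia3 and Hspa5 are blue in all 4 FLASH libraries.

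The interferon pathway upstream of class I was described by 25 tested genes of 26. Positive fold changes were found for 23 of 25 in FLASH against sham (median 0.39) and 23 of 25 in CONV against sham (median 0.59), and none was called. In CONV the first 3 by p were Stat2, a transcription factor of the type I interferon complex (1.05 ± 0.37), Irf7, an amplifier of interferon transcription (1.54 ± 0.60), and Irf9, the DNA-binding partner of Stat2 (1.06 ± 0.47), each with adjusted p = 0.607 in edgeR with Benjamini-Hochberg adjustment. Stat2 stood at 55.8, 59.6 and 57.4 CPM in sham, at 61.7, 73.7, 144 and 64.4 CPM in FLASH and at 77.8, 160 and 118 CPM in CONV, so that all 7 irradiated libraries were above sham. In FLASH against sham 2.44% of all genes were higher without overlap, and with libraries scaled by total counts alone FLASH overlapped sham for Stat2. Irf7 stood at 26.4, 17.6 and 15.5 CPM in sham, at 24.3, 19.6, 77.0 and 19.4 CPM in FLASH and at 32.6, 83.8 and 56.3 CPM in CONV, where all 3 CONV libraries were above sham. In CONV against sham 7 of 25 genes were higher without overlap, against 8.55% of all genes.

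Without the lymphocyte-rich pair the interferon list had a median of −0.05 in FLASH against sham, with 11 of 25 positive, and of 0.14 in CONV, with 18 of 25 positive. Stat2 was then 0.75 ± 0.17, Irf7 1.14 ± 0.29 and Irf9 0.55 ± 0.14 in CONV against sham, with adjusted p = 0.138, 0.156 and 0.168 in edgeR with Benjamini-Hochberg adjustment. DESeq2 on these 8 libraries called all 3 (adjusted p = 0.00999, 0.00986 and 0.0228), where it called 4.35% of all genes. Irf1, an activator of class I promoters, was 128 CPM in FLASH replicate 3 and 117 and 91.3 CPM in CONV replicates 2 and 3, against 48.3 to 57.6 CPM in sham.

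Other class I heavy chains and proteasome genes showed no shift that was called. Of 23 further heavy chain genes 15 were tested, and 9 were positive in FLASH and 10 in CONV against sham (medians 0.23 and 0.33). H2-T24, a nonclassical heavy chain, was 2.47 ± 1.20 in CONV against sham, with 82.0 and 105 CPM in the lymphocyte-rich FLASH and CONV libraries against 6.57 to 8.67 CPM in sham. H2-Q8 was 2.23 ± 1.18 in CONV against sham with all libraries and −0.05 ± 0.62 in the 8, and its sham level was 0.403 to 0.668 CPM. H2-Q10, a secreted heavy chain, was −1.79 ± 0.95 in FLASH against sham and −2.11 ± 0.95 in FLASH against CONV. It stood at 104, 35.9 and 32.9 CPM in sham, 12.6, 16.6, 15.7 and 21.7 CPM in FLASH and 7.46, 17.0 and 192 CPM in CONV, so CONV ranged from the lowest to the highest library. Genes of this family are close paralogs and may have exchanged reads.

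The proteasome core that both forms share (11 genes) had a median log2 fold change of −0.06 in FLASH and 0.17 in CONV against sham, and the 3 constitutive subunits −0.05 and 0.02. Psmb10 (MECL-1), the remaining immunoproteasome subunit, stood at 16.9, 11.3 and 11.3 CPM in sham, at 15.4, 11.9, 29.8 and 13.3 CPM in FLASH and at 13.2, 32.6 and 27.1 CPM in CONV (0.89 ± 0.43 in CONV against sham). It was high in the same 3 libraries as Psmb8 and Psmb9. The interferon-induced GTPases (14 genes) had medians of 0.56 and 0.41 with all libraries and of 0.07 and 0.04 in the 8 libraries.

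Receptors that read class I molecules were positive in 12 of 12 tested genes of 14, in FLASH and in CONV against sham, with medians of 2.07 and 2.60. The T cell coreceptor Cd8a reached 92.5 and 54.2 CPM in the lymphocyte-rich FLASH and CONV libraries against 0.336 to 0.759 CPM in sham and 0.256 to 0.741 CPM in the other irradiated libraries (5.40 ± 2.74 in FLASH against sham). The natural killer receptors Klra3 (2.18 ± 1.07 in FLASH, 2.85 ± 1.12 in CONV) and Klrc2 (2.39 ± 1.23 in FLASH) were at 0.0911 to 0.213 CPM in sham, close to the level of 3 counts. In the 8 libraries 5 of 11 receptors were positive in FLASH and 9 of 11 in CONV against sham.

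Pirb and Lilrb4a, inhibitory receptors of myeloid cells, of which Pirb binds class I molecules, differed less between libraries than Cd8a. Pirb stood at 20.9, 24.4 and 20.5 CPM in sham, at 18.1, 21.8, 57.9 and 20.3 CPM in FLASH and at 59.5, 73.5 and 40.9 CPM in CONV. Lilrb4a stood at 16.1, 16.4 and 14.3 CPM in sham, at 10.9, 14.8, 27.9 and 15.5 CPM in FLASH and at 37.1, 43.2 and 18.2 CPM in CONV. All 3 CONV libraries were above sham in both genes (for Lilrb4a not with total-count scaling), CONV replicate 1 included, where 8 of the 10 class I genes lay within the sham range. Of the 12 receptors 6 (Klrc1, Klrc2, Klra3, Klra7, Pirb and Lilrb4a) were higher in CONV than in sham without overlap, against 8.55% of all genes. The log2 fold change in CONV against sham was 1.40 ± 0.45 for Pirb and 1.07 ± 0.40 for Lilrb4a, adjusted p = 0.607 in edgeR with Benjamini-Hochberg adjustment, and in FLASH against CONV −0.97 ± 0.41 and −0.93 ± 0.36. For the 8 libraries Pirb was 1.18 ± 0.18 in CONV against sham (adjusted p = 0.0854) and −1.31 ± 0.18 in FLASH against CONV (adjusted p = 0.0931), and DESeq2 called both (adjusted p = 1.87e-05 and 1.43e-06). The summed level of 11 macrophage genes, none at 0, was 913 to 1117 CPM in sham, 908 to 1378 CPM in FLASH and 978 to 2553 CPM in CONV, with the highest value in CONV replicate 1. The part of these cells in the Pirb and Lilrb4a values was not tested.

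Levels of cell type genes did not follow the class I genes in every library. The leukocyte gene Ptprc (CD45) stood at 1337 and 1332 CPM in the lymphocyte-rich FLASH and CONV libraries against 53.3 to 59.2 CPM in sham, and at 79.8 CPM in CONV replicate 3 and 139 CPM in CONV replicate 1. CONV replicate 3, with 9 of the 10 genes above sham, thus had less Ptprc than CONV replicate 1, with 1 of 10 above sham. On the log2 scale the mean of the B cell genes lay 0.10 above the sham mean in CONV replicate 3, that of the T cell genes 0.62 and that of the macrophage genes 0.16. The mean of the natural killer and cytotoxic genes lay 0.79 above it (sham −0.27 to 0.48), that of the lymph node stroma genes 0.89 above it (sham −0.047 to 0.053), and that of the keratinocyte genes 2.305 above it (sham −0.12 to 0.18). Of the 7 lymph node stroma genes 4 were at 0 counts in all sham libraries, which narrows that sham range. Their mean lay 0.61 above sham in CONV replicate 1 as well. In CONV replicate 3 Glycam1 had 1 count, Madcam1 8 and Cxcl13 229. The fibroblast progenitor genes in CONV replicate 3 were at −1.31 (sham −0.295 to 0.355), the dendritic cell genes at −0.58, the endothelial genes at −0.12 and the adipocyte genes at −0.063. Keratinocyte genes were highest in FLASH replicate 4 (5.27), where the mean of the 10 class I genes was −0.11. Nlrc5 to Ptprc was 1.46 to 2.07 in sham, 0.280 and 0.248 in the lymphocyte-rich FLASH and CONV libraries, and 2.10 in CONV replicate 3. The part of these cells in the class I values of either kind of library was not tested.

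Among 11291 genes outside these lists, those most like the mean of the 10 class I genes over all 10 libraries were Emg1 (Pearson r = 0.992), Ltbp2, Rrp9, Zc3h12a, Slc9a8, Gm12250, G3bp1, Cyth1, Rpl22l1 and Zfp384 (0.979). Over the 8 libraries they were Sugct (0.990), Uqcrh, Chchd10, Acadvl, Sdha, Slc25a22, Hadhb, Oplah, Ddhd2 and Gbas (0.982). The second list holds mitochondrial genes such as Uqcrh and Sdha of the respiratory chain and Acadvl and Hadhb of fatty acid oxidation. Acadvl stood at 322 CPM in CONV replicate 3, 157 CPM in sham replicate 1 and 94.7 to 124 CPM in the other 6 of these libraries. The same 2 libraries were the highest of the 8 for H2-K1, H2-D1 and Tap2. Emg1, first over all 10 libraries, stood at 26.6 and 30.0 CPM in the lymphocyte-rich FLASH and CONV libraries, at 18.5 CPM in CONV replicate 3 and at 9.14 to 12.8 CPM in the rest. The correlations describe these libraries, and the points share scaling and depth.

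Likeness among the 10 genes themselves fell into 3 kinds over all 10 libraries. Tap1, Tap2, Psmb8, Psmb9, Nlrc5, H2-T23 and H2-K1 had r of 0.876 to 0.992 with the mean of the other 9 genes. H2-D1 (0.354) and Tapbp (0.549) followed each other (0.858) more than the rest, and B2m had r = −0.745. Among the 8 libraries H2-D1 (0.898) and Tapbp (0.719) stood closer to the rest, and B2m remained negative (−0.384). These values are over 10 and 8 libraries, without a test.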

How the data were processed

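Total RNA of 10 fat samples was sequenced as ribosome-depleted stranded libraries, per the labels' protocols. The deposited files hold raw counts per gene symbol, whole numbers without normalization. The submitters' processing notes name kallisto 0.5.0 and mm10, with no role. The aligner, the strand setting and the annotation behind the deposited counts were not found in labels or files. In each library 52.0% to 69.6% of entries went to 5 categories that name no gene and were left out. The highest shares were those of the lymphocyte-rich pair, 69.6% in FLASH replicate 3 and 66.7% in CONV replicate 2. The pair also had the fewest counts given to genes, 22.4 and 25.5 M.

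Genes were kept by filterByExpr, scaled by TMM and fitted in edgeR 4.0.16 (R 4.3.3, quasi-likelihood, robust, 1 mean per group, all 10 libraries, 15266 genes), with 3 two-sided contrasts and Benjamini-Hochberg adjustment over all genes, called at 0.05. SE is the log2 fold change divided by the root of F. The same fit ran on 15252 genes without the lymphocyte-rich pair. The common coefficient of biological variation was 0.543 and 0.284. DESeq2 1.42.0 and limma 3.58.1 (voom) were among the 32 alternatives. Log2 levels used a prior count of 2. The fits were also run on simulated data. These held no lymphocyte-rich libraries, so that run cannot show how the fits behave with such a pair.

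The members, the 8 lists of pathway genes, the marker lists and the pair were chosen with earlier results of these data known. The rule for named genes was all 10 members and, per pathway list, the 3 genes with the smallest p in each contrast and any called gene. After the values were seen, fold changes were limited to those of them with an unadjusted p under 0.1. Promoters are from RefSeq, gene models from GENCODE M21.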

Additional observations from a re-analysis of the deposited data

Results flagged for a closer look

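Of 19 values checked within the FLASH group (10 genes on the log2 scale and 9 log2 ratios), 10 had a library standing apart, and in each it was lymphocyte-rich FLASH replicate 3. Chance flags about 1 in 20 such groups. The 19 values are not independent, since most of the genes varied together and the ratios reuse them. This rate is thus no test of the count. FLASH replicate 3 was also already set apart by its B cell genes. The gap of that library to the nearest of the other 3, as a share of the group's range, was 0.860 for H2-K1, 0.858 for H2-T23, 0.873 for Tap1, 0.907 for Tap2, 0.845 for Psmb8 and 0.869 for Nlrc5, in each of which it was the highest. It was also the highest for Psmb9 to Psmb6 (0.921) and Psmb10 to Psmb7 (0.850), and the lowest for H2-T23 to Ptprc (0.903) and Nlrc5 to Ptprc (0.851). Sham and CONV have 3 libraries each and were not checked.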

How the results depend on the processing

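B2m was negative against sham in 32 of 32 alternatives, from −0.45 to −0.15 in FLASH and from −0.59 to −0.19 in CONV, and H2-T23 was positive in CONV against sham in 32 of 32, from 0.30 to 1.60. The counts of called genes, which were 0 with all 10 libraries in edgeR, moved with the tool and the libraries. In CONV against sham they were 66 in DESeq2 and 1 in limma voom with quality weights, and without the lymphocyte-rich pair 6 in edgeR, 661 in DESeq2 and 4 in limma voom. In FLASH against CONV they were 40 and 1, and without the pair 2, 667 and 3. In FLASH against sham DESeq2 called 4 without the pair. With 1 library left out, from all 10 or from the 8, the counts ran from 0 to 1134 in CONV against sham and from 0 to 1025 in FLASH against CONV, the highest without CONV replicate 1, where the spread of the lone CONV library is taken from the other groups.

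In FLASH against sham 5 of the 10 genes changed sign when the pair was left out. Without the pair in edgeR, DESeq2 and limma voom, and with the mean of the B cell genes as a covariate, H2-K1 was −0.14, −0.14, −0.12 and −0.015, H2-T23 −0.13, −0.12, −0.13 and −0.030, Psmb8 −0.26, −0.25, −0.24 and −0.15, Psmb9 −0.27, −0.27, −0.26 and −0.18, and Tap2 −0.16, −0.15, −0.15 and −0.059. With quality weights Psmb8 was −0.12, Psmb9 −0.18, Tap2 −0.063 and Cd8a −0.48. H2-D1, close to 0, was 0.022 with total counts, 0.0089 in limma voom, 0.083 with quality weights and 0.032 with the replicate block. Cd8a was −0.37, −0.37 and −0.47 without the pair in edgeR, DESeq2 and limma voom and −0.12 with the covariate, and H2-Q8 in CONV against sham −0.047, −0.034 and −0.15. Beyond the libraries left out or adjusted for, the cause was not tested.

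With 1 library left out, values in FLASH against sham ran from −0.28 to 0.35 for H2-K1, −0.18 to 0.21 for H2-D1, −0.23 to 1.01 for H2-T23, −0.074 to 1.30 for Tap1, −0.24 to 0.38 for Tap2, −0.089 to 0.30 for Tapbp, −0.42 to 0.80 for Psmb8, −0.41 to 0.73 for Psmb9, −0.086 to 0.95 for Nlrc5 and −1.06 to 5.81 for Cd8a. In CONV against sham they ran from −0.095 to 0.89 for H2-K1, −0.20 to 0.54 for H2-D1, −0.077 to 1.78 for Tap1, −0.15 to 0.91 for Tap2, −0.27 to 0.65 for Tapbp, −0.024 to 1.63 for Psmb8, −0.056 to 1.55 for Psmb9, −0.033 to 1.27 for Nlrc5, −0.79 to 2.74 for H2-Q8, −0.0038 to 1.17 for Psmb10 and −0.30 to 1.32 for Sec61b. In FLASH against CONV they ran from −0.60 to 0.14 for H2-D1, −1.43 to 0.26 for H2-T23, −0.093 to 0.23 for B2m, −1.37 to 0.60 for Tap1, −0.60 to 0.33 for Tapbp, −1.54 to 0.017 for Psmb8, −1.48 to 0.015 for Psmb9, −0.95 to 0.36 for Nlrc5 and −3.48 to 1.18 for H2-Q10.

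The labels do not state whether replicate numbers pair the samples. With 3 or 4 libraries a group, the correlations that follow cannot decide it. The lymphocyte-rich libraries also carry unlike numbers, 3 in FLASH and 2 in CONV. Deviations of samples with the same number correlated at 0.261, −0.048 and −0.029 between FLASH and sham, −0.471, 0.072 and −0.310 between CONV and sham, and 0.250, −0.756 and −0.607 between FLASH and CONV. With the replicate number as a block, 0 genes were called in each comparison and B2m was −0.29 in FLASH and −0.45 in CONV against sham. At 3 or 4 libraries a group, 1 of them lymphocyte-rich in FLASH and in CONV, the number of libraries limits these values. Depth limits genes near 3 counts, such as Klra3 in sham.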
